A study of Zea mays with 48 samples.

Results

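The comparison described here is that of 2 maize inbred lines, UH301 and UH250, in whole embryos taken 6 days after pollination. It rests on the 8 embryo arrays of cross 301/250, out of 48 arrays in the series, which form 2 of its 12 loops. Each of these 2-colour arrays set RNA of 1 hybrid against RNA of 1 inbred line, and no array carried both inbreds. The inbred difference was therefore formed through the hybrids. In each replicate, hybrid 301x250 and its reciprocal 250x301 were each hybridised against UH301 and against UH250. The mean ratio of the hybrids to UH301 was subtracted from their mean ratio to UH250. The hybrids cancel, and a positive value means more transcript in UH301. A constant dye effect cancels as well. The labels do not state which channel is the numerator. The likely direction was used, and all signs below would flip together under the other.

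The groups were selfed UH301, selfed UH250, hybrid 301x250 with UH301 taken as the seed parent by convention, and hybrid 250x301 with UH250 as the seed parent. Per the labels, the plants grew in a glasshouse, selfed and crossed ears belonging to one set received pollen on a single day, and embryos were freed from the surrounding tissue with glass needles. The labels call the 2 loops biological replicates and do not say how many ears or embryos were pooled, so the p-values below measure only the spread between loops, pooled over the 12 loops of the series, which may be technical. The array held 3585 probes after 7 control entries were dropped, and 64 of them could be tied to 1 gene each (61 genes). The others carry plate positions such as CE8 or codes such as S_CC838 that the sources used here do not pair with a gene. They are named by those codes, with no role.

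At this age the maize embryo is a small body at an early stage of pattern formation, and most of the seed is endosperm, the nutritive tissue that arises from a separate fertilisation. Inbred lines differ from each other at very many loci, and the expression level of a gene in a hybrid is commonly described relative to the levels in its inbred parents. Many of the named genes encode chromatin proteins. Histone deacetylases take acetyl groups off histone tails. Nucleosome assembly factors deposit histones on DNA. Proteins with a methyl-CpG-binding domain are related to readers of methylated cytosine, which DNA methyltransferases write. Polycomb group proteins hold genes silent through many divisions.

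The arrays differed in quality. The array of hybrid 250x301 against UH301 in replicate 1 had values for 2141 probes, against 2801 to 3020 on the other 7 arrays. The standard deviation of its log2 ratios was 1.06, against 0.605 to 0.760 on the others. The medians of all 8 arrays lay between -0.05 and 0.05. Only ratios were analysed. How bright the spots were is not known from them, and precision is limited by how few arrays there are. Fewer cells of a type and less RNA per cell cannot be told apart in whole embryos. Endosperm carried over with the embryos could not be checked by level either. Of the endosperm markers, FIE1 and NRP1 had a ratio on 8 of 8 arrays and MEG1 on 4 of 8.

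A complete set of 4 ratios gave an inbred difference for 1954 probes in replicate 1 and for 2418 in replicate 2, with 1678 probes in both. The 2 replicates hardly resembled each other. Across those 1678 probes Pearson's r between replicate 1 and replicate 2 was 0.05, Spearman's rho was 0.03, and 50.2% of the probes had the same sign. These correlations are descriptions across probes, and probes are not independent replicates. In endosperm of the same cross the corresponding r was 0.37 over 2436 probes, with 67.0% of signs shared. In the 4 embryo loops of cross 301/005, r between pairs of loops ran from 0.07 to 0.35, and in its endosperm loops from 0.32 to 0.62.

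**Figure D1:**
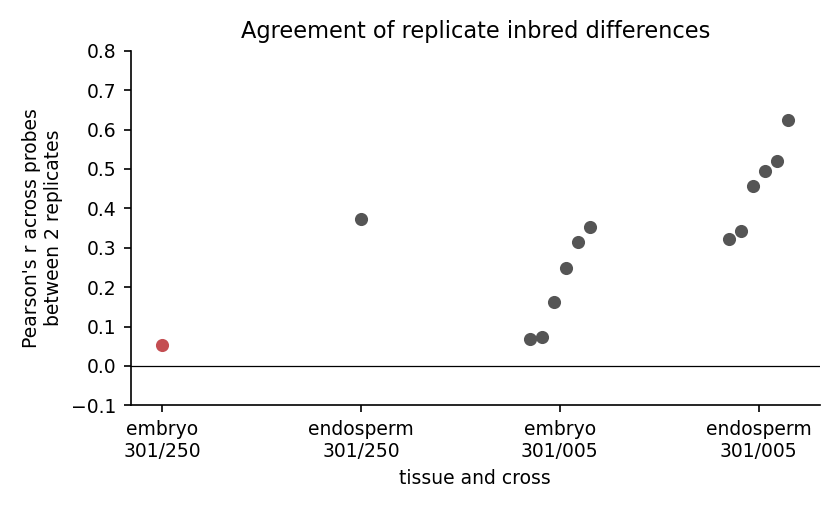
Agreement of replicate inbred differences. Each point is Pearson's r (vertical axis, no unit) across probes between 2 replicate loops, by tissue and cross (horizontal axis). The red point is the embryo of cross 301/250 at 0.05, below the 0.37 of its endosperm and below the 0.07 to 0.35 of the 301/005 embryo pairs.

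The replicates also differed in how well their own arrays fitted together. The inbred difference can be read through hybrid 301x250 alone or through 250x301 alone. These readings share no array, but within a replicate they share the inbred RNAs and are not independent. In replicate 1 the readings correlated at r 0.05 (rho 0.14) over 1954 probes, with 57.6% of signs shared. In replicate 2 they correlated at r 0.17 (rho 0.31) over 2418 probes, with 63.5% of signs shared. The difference between the reciprocal hybrids can likewise be read against UH301 or against UH250. Those readings correlated at r -0.02 in replicate 1 and at r 0.38 (rho 0.54) in replicate 2. Inbred differences were larger in replicate 1, where the median absolute value was 0.34, than in replicate 2, where it was 0.21. The array that stood apart belongs to replicate 1. The reading of replicate 1 that does without it, through 301x250, correlated with the same reading of replicate 2 at r 0.11 over 2510 probes. With the 250x301 reading of replicate 2 it correlated at r 0.15. The reading of replicate 1 that includes this array, through 250x301, correlated with those 2 readings at r 0.03 and -0.07. The part of this array in the low agreement was not tested.

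**Figure D2:**
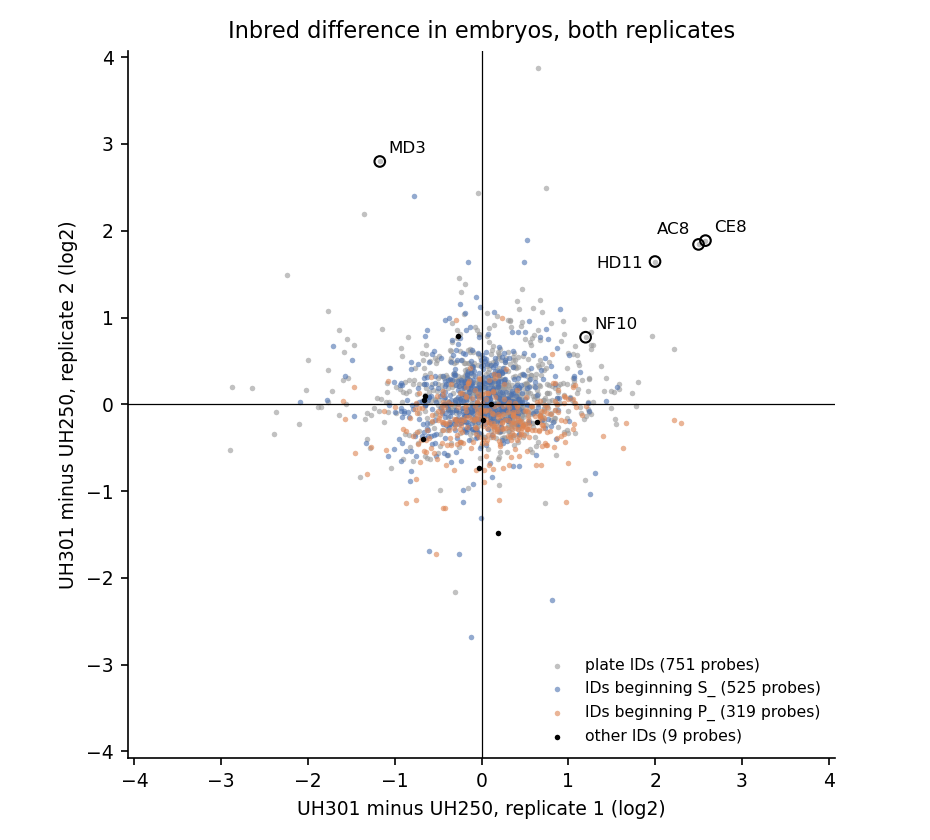
Inbred difference of each tested probe in both replicates. Axes are UH301 minus UH250 on the log2 scale in replicate 1 (horizontal) and replicate 2 (vertical), and colours mark the form of the probe's ID. CE8, AC8 and HD11 lie at the upper right, MD3 is far from the diagonal at -1.17 and 2.80, and the cloud shows no slope (r 0.05 over the 1678 probes with both values, of which 1604 were tested and are drawn).

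Of the 1678 probes, 1604 could be tested with limma fitted over all 12 loops of the series. None passed an adjusted p of 0.05 (0 of 1604, 0%), and the lowest limma adjusted p was 0.0935. At an unadjusted p under 0.05 there were 119 probes, which is 7.42% of those tested. Of these, 70 were higher in UH301 and 49 were higher in UH250, and 117 of the 119 had the same sign in both replicates. They were chosen by the mean of the same 2 replicates, so their shared sign is largely part of the choice. Over all tested probes, 798 of 1604 had opposite signs in the 2 replicates. The median standard error was 0.27 and the median 95% interval reached 0.61 to either side of the estimate, so that for a typical probe a difference within that width could not be told from 0. The median absolute difference over all tested probes was 0.21. Differences above 1, a doubling, were found for 30 probes (1.87%), 15 in each direction, and 24 of these had the same sign in both replicates. A large mean likewise favours equal signs.

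The inbred difference exceeded 1 in size in both replicates for 8 of the tested probes. In 3 of them, CE8, HD11 and AC8, the sign was the same, and each was higher in UH301. In the other 5 the sign was opposite. MD3 measured -1.17 in replicate 1 and 2.80 in replicate 2, PH7 -1.36 and 2.20, QA11 -1.77 and 1.08, QD3 -2.24 and 1.49, and S_CC523 1.25 and -1.03. No probe was more than 1 higher in UH250 in both replicates.

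CE8 had the lowest p of the table. In replicate 1 hybrid 301x250 measured -0.59 and hybrid 250x301 -0.89 relative to UH301, while relative to UH250 they measured 1.81 and 1.87. In replicate 2 the same ratios were -0.79, -0.76, 1.09 and 1.13. Every hybrid ratio thus lay below UH301 and above UH250, and the reciprocal hybrids stood close together. The inbred difference was 2.58 in replicate 1 and 1.89 in replicate 2, with a mean of 2.23 ± 0.31 (SE, n = 2 loops, 95% interval 1.52 to 2.94) and a limma adjusted p of 0.0935. Leaving out the array that stood apart gave 2.06 ± 0.33. In this setting replicate 1 was read through 301x250 alone and was also given a lower weight than replicate 2. Every fitted value and count given below without that array therefore also leans towards replicate 2. In endosperm it had a value in replicate 1, at 3.20.

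HD11 showed the same arrangement. In replicate 1 the hybrids measured -1.24 and -1.14 relative to UH301, and 0.81 and 0.81 relative to UH250. In replicate 2 they measured -0.77 and -0.48 relative to UH301, and 0.69 and 1.35 relative to UH250. No ratio to UH301 overlapped a ratio to UH250. The inbred difference of 2.00 and 1.65 averaged 1.82 ± 0.23 (SE, n = 2, 95% interval 1.28 to 2.36, limma adjusted p 0.0935), and was 1.78 ± 0.26 without the array that stood apart.

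AC8 was the third. The hybrids in replicate 1 measured -0.60 and -0.03 relative to UH301, and 1.95 and 2.42 relative to UH250. In replicate 2 the values were -0.79 and -0.87 against UH301, and 1.03 and 0.99 against UH250. The hybrids of replicate 1 were nearer to UH301 than to UH250, and those of replicate 2 lay about midway. The inbred difference was 2.50 and 1.84, with a mean of 2.17 ± 0.45 (SE, n = 2) and a limma adjusted p of 0.426. Endosperm of replicate 2, the loop with a value there, gave 2.19. CE8, HD11 and AC8 were the 3 probes past the threshold when limma took the spread from these 2 loops alone, with 1678 probes tested.

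The 12 probes of lowest p in each direction, among those with 1 sign in all 4 readings, are described next. They were picked by their values, so their agreement between readings is part of the choice. One sign in all 4 readings was found for 313 of the 1604 tested probes (19.5%), of which 189 were higher in UH301 and 124 in UH250. On the UH301 side the fitted differences ran from 0.73 to 2.23, 7 probes carried plate IDs, 5 carried S IDs, and none was a P probe. On the UH250 side they ran from -1.37 to -0.68, with 2 plate, 6 S and 4 P probes.

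Beyond CE8, HD11 and AC8, NF10 measured 1.20 and 0.77 in the 2 replicates (0.99 ± 0.22 SE). ND1 measured 1.96 and 0.79 (1.38 ± 0.30 SE), and its 250x301 reading of replicate 1 was 2.53 against 1.39 through 301x250. S_CC838 (0.77 and 0.75) and S_CC622 (0.68 and 0.78) gave nearly equal replicates at a smaller size. S_CC722 rested more on the array that stood apart, since its readings of replicate 1 were 0.10 through 301x250 and 1.92 through 250x301, and its difference went from 0.79 to 0.41 without that array. S_CC225 likewise went from 0.76 to 0.52. S_CC816, KH12 and AA12 completed the set at 1.00, 0.93 and 0.88. In 6 of the 12 (CE8, HD11, NF10, AC8, S_CC225 and S_CC622) the hybrids lay between the inbreds on all 8 arrays, and in 0 of the 12 on the UH250 side. Both lists were chosen from these same ratios, and the share over all tested probes was not computed. The counts therefore do not show that hybrids behaved differently in the 2 directions.

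Among the probes higher in UH250, S_CC543 measured -0.61 and -1.69 (-1.15 ± 0.27 SE, n = 2, limma adjusted p 0.426). Its ratios to UH301 were 0.20 and 0.26 in replicate 1 and 1.12 and 2.73 in replicate 2, so that its readings of replicate 2 were -0.48 through 301x250 and -2.91 through 250x301. P_H15 measured -0.87 and -1.13, but its readings of replicate 2 were -0.02 through 301x250 and -2.25 through 250x301, and through 301x250 alone its mean was -0.24. P_G5 measured -0.76 and -1.10. S_CC244 measured -1.08 and -0.60, and S_TO64 -0.82 and -0.77. JB12 had the most negative mean of the 12, -1.37 ± 0.44 (SE, n = 2), but its reading through 250x301 in replicate 1 was -4.39 and the other 3 readings lay between -0.48 and -0.20. Without the array that stood apart JB12 measured -0.36 ± 0.28. The same step moved the mean of P_N5 (-1.45 and -0.56 in the 2 replicates) from -1.01 to -0.66. It moved S_CC402 (-1.33 and -0.45) from -0.89 to -0.57 and DF8 (-1.32 and -0.40) from -0.86 to -0.57. S_TO88 measured -0.26 and -1.72, so its mean of -0.99 was mostly that of replicate 2. S_CC367 measured -0.81 and -0.54, and P_J5 -0.71 and -0.66.

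**Figure D3:**
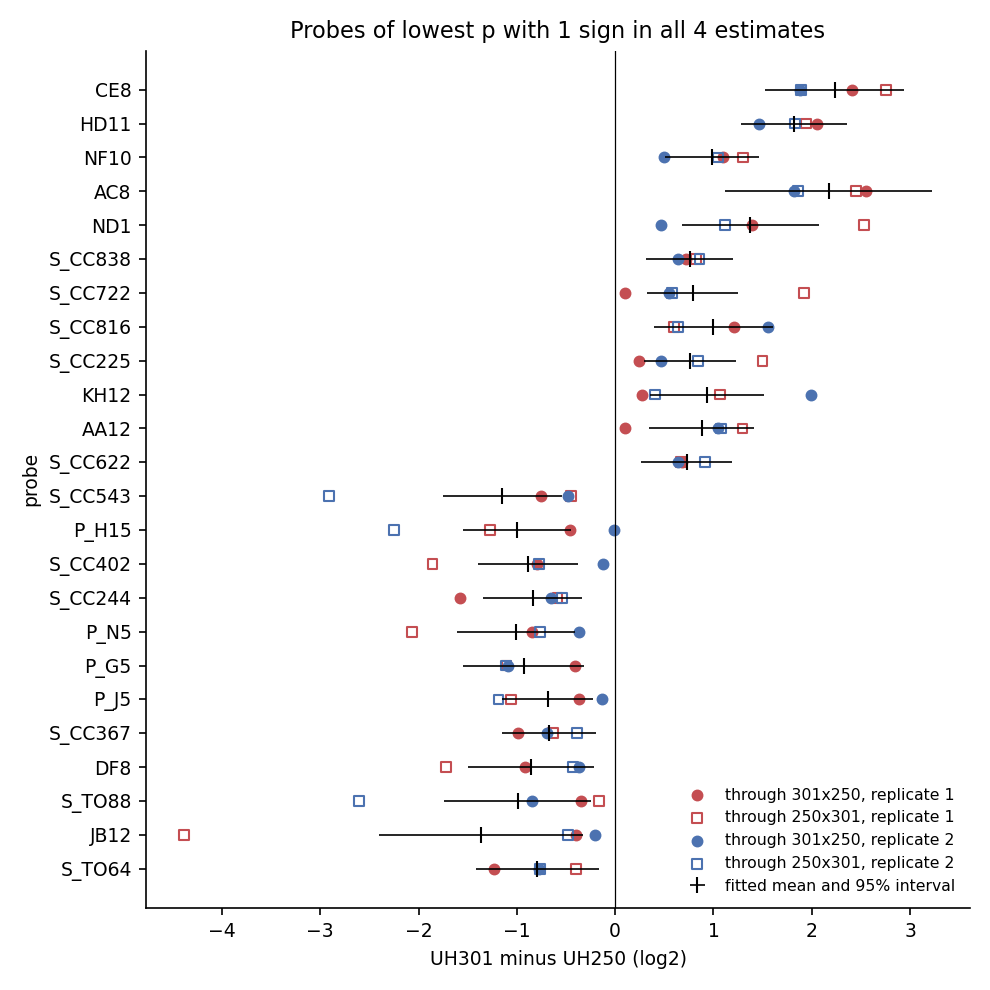
The 12 probes of lowest p in each direction with 1 sign in all 4 readings. The horizontal axis is UH301 minus UH250 (log2), each row is a probe, red and blue symbols are the readings of replicates 1 and 2 through each hybrid, and the bar is the fitted mean with its 95% interval. The 4 readings of CE8 (1.88 to 2.75), HD11 and AC8 stand close together, while JB12 owes its mean to 1 reading at -4.39.

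Nearly all of the named chromatin genes carry IDs of the P form, so the values are described by the form of the ID. Of 751 plate-coded probes tested, 495 (65.9%) were higher in UH301, against 945 of 1604 (58.9%) over all probes, and this difference was not tested. They had a median of 0.11 and medians of 0.17 and 0.09 in the 2 replicates. Of the plate probes at an unadjusted p under 0.05, 51 were higher in UH301 and 14 in UH250. The 525 S probes were nearly balanced, with a median of 0.04, and 19 and 20 of them at that p. The 319 P probes had a median of 0.13 in replicate 1 and -0.19 in replicate 2. In replicate 1, 191 of them were above 0, and in replicate 2 it was 69, so that 186 of the 319 had opposite signs. Of the P probes at an unadjusted p under 0.05, 0 were higher in UH301 and 15 in UH250. On single arrays the median ratio of the P probes ran from -0.40 to 0.16. Whether the P set shifted as a whole through the arrays or through the RNA was not tested.

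Of the 64 probes tied to a gene, 59 had an inbred difference in at least 1 replicate, 40 in both, and 31 could be tested. No named gene passed the test, and none had an unadjusted limma p under 0.05, against 7.42% of all tested probes. The lowest limma adjusted p among them was 0.746. Over the 31, 21 were higher in UH301 (median 0.11), against 945 of 1604 probes overall (median 0.07). Replicate 1 placed 25 of the 31 above 0 (median 0.26), and replicate 2 placed 6 of the 31 above 0 (median -0.14), with opposite signs for 25. Without the array that stood apart, and so with less weight on replicate 1, 14 of the 31 were above 0 and the median was -0.02. Without replicate 1 it was 3 of the 24 that could then be tested, and without replicate 2 it was 20 of 24. The direction of a named gene below is therefore mostly that of 1 replicate.

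**Figure D4:**
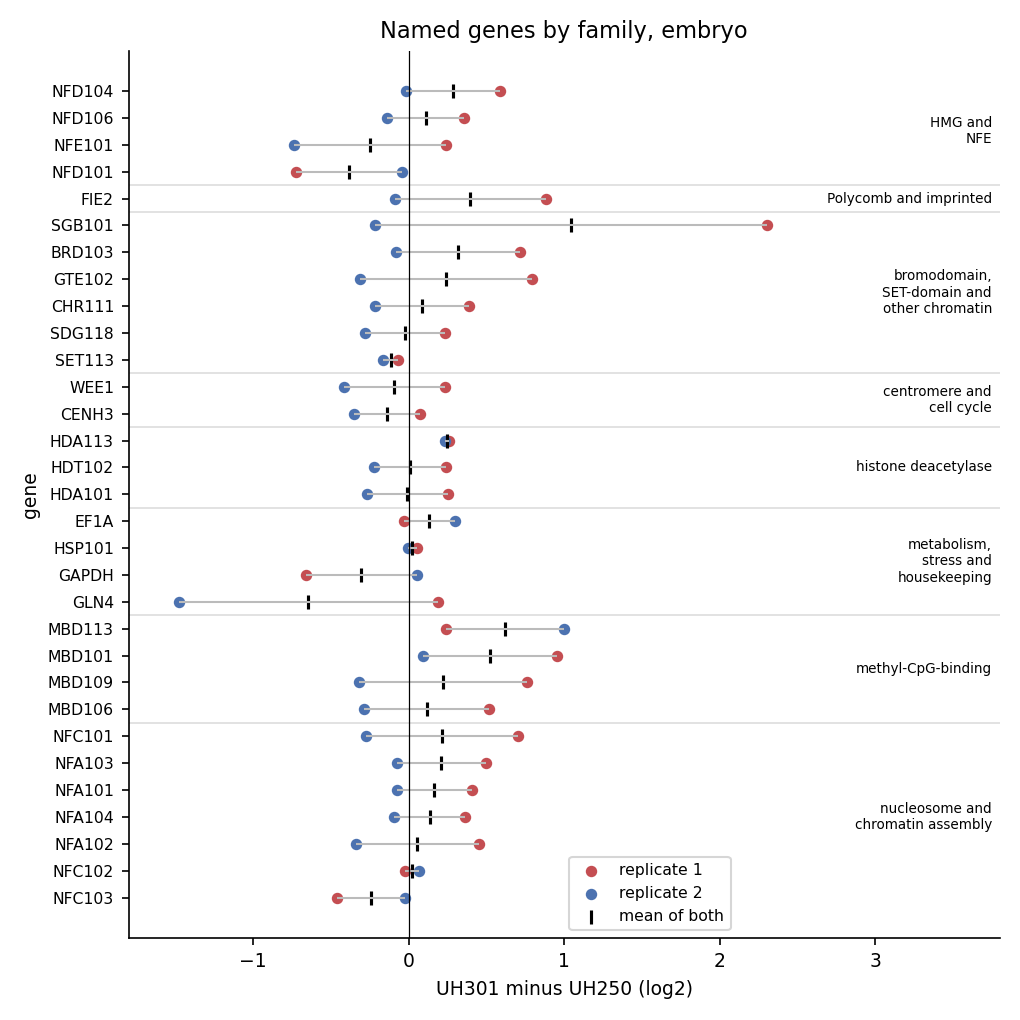
The 31 tested named genes by family. The horizontal axis is UH301 minus UH250 (log2). Red and blue points are replicates 1 and 2, the line joins them, and the black tick is their mean. Most red points lie to the right of 0 and most blue points to the left (25 and 25 of 31).

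The methyl-CpG-binding genes had 4 of 4 tested members above 0, with a median of 0.37, and 0 of 4 passed the test. MBD113 measured 0.24 in replicate 1 and 1.00 in replicate 2 (0.62 ± 0.36 SE, n = 2). Its hybrids in replicate 1 measured -1.96 and 1.26 relative to UH301 and -0.20 and -0.02 relative to UH250, so the 2 arrays against UH301 lay far apart. In replicate 2 they measured -0.01, -0.18, 0.36 and 1.44. MBD101 measured 0.95 and 0.09 (0.52 ± 0.28 SE), and 2 of the 4, MBD106 (0.52 and -0.28) and MBD109 (0.76 and -0.32), changed sign between replicates. Without the array that stood apart MBD101 measured 0.13, MBD113 1.25, MBD106 and MBD109 measured -0.12 and -0.13, and the list had 2 of 4 above 0 with a median of 0.00. MBD111 (0.00 and -0.05) was not tested, and MBD105 (-0.25) and MBD108 (0.08) had a value in replicate 2 only. Another 2 tested probes with the MBD prefix were not tied to a gene. They measured 0.51 and 0.52, with medians of 1.14 and -0.10 in the 2 replicates.

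Of the DNA methyltransferase probes 0 could be tested. DMT101, the maintenance methyltransferase gene also called MET1, has 3 probes. P_DMT101 measured 0.60 and 0.20, S_MET1 -0.79 in replicate 1, and S_DMT101 had no complete loop, so the probes of this gene disagreed in sign in replicate 1. The MET1 value included a ratio of 1.37 on the array that stood apart, against 0.12, 0.07 and -0.16 on the other 3 arrays of the replicate. DMT105 measured 1.52 in replicate 1 and included -2.14 on that array. DMT106, with 2 probes, measured -0.18 and -0.25 in replicate 2. MET2A measured -0.29 in replicate 1, and 0.25 through 301x250, the reading without that array. The same reading of P_DMT101 was 0.07.

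The named histone deacetylase genes were near 0, with 2 of 3 tested members above it and a median of 0.01, and 1 of 3 and -0.16 without the array that stood apart. HDA113 was the 1 member with both replicates above 0, at 0.26 and 0.24 (0.25 ± 0.22 SE, n = 2, limma adjusted p 0.879). Its ratio to UH301 was 1.63 on the array that stood apart and -0.98 on the partner array, and without that array it measured 0.63 ± 0.34. HDA101, a class I deacetylase gene, measured 0.25 and -0.27, and HDT102, of the plant-specific HD2 type, 0.24 and -0.22. HDA110 measured -0.29 and -0.23 without a test. HDA102, HDA106 and HDA108, with replicate 2 only, measured -0.14, -0.14 and -0.11. Another 3 tested probes have IDs with the HDA prefix but were not tied to a gene. They ran from -0.34 to 0.54, with 2 above 0, a median of 0.36, and medians of 0.75 and -0.04 in the 2 replicates.

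Among 7 tested genes of nucleosome and chromatin assembly, 6 were above 0 with a median of 0.14, and 6 of the 7 had opposite replicates. Without the array that stood apart 4 of the 7 were above 0 and the median was 0.00. The NFA genes, which encode nucleosome assembly proteins of the NAP1 type, were alike. NFA101 measured 0.40 and -0.08, NFA102 0.45 and -0.34, NFA103 0.49 and -0.07 and NFA104 0.36 and -0.09. All 4 were thus above 0 in replicate 1 and below 0 in replicate 2. The NFC genes encode WD-repeat proteins of the MSI1 type, subunits of chromatin assembly and deacetylase complexes. NFC101 measured 0.71 and -0.27, NFC102 -0.03 and 0.07, and NFC103 -0.46 and -0.02 (-0.24 ± 0.24 SE). NFC104 measured -0.86 in replicate 2. Of the genes of high mobility group proteins, which bend DNA, NFD101 was below 0 in both replicates, at -0.73 and -0.04 (-0.38 ± 0.24 SE). NFD104 measured 0.59 and -0.02, and NFD106 0.36 and -0.14. NFE101 measured 0.24 and -0.74, and went from -0.25 to -0.80 without the array that stood apart. The 4 tested NFD and NFE genes had 2 above 0 and a median of -0.07, and 0 of 4 and -0.18 without that array. Another 4 tested probes with the NFD prefix were not tied to a gene. They ran from -0.60 to 0.65, with 3 above 0, a median of 0.36, and medians of 0.69 and 0.04 in the 2 replicates.

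The bromodomain, SET-domain and other chromatin genes had 4 of 6 tested members above 0 and a median of 0.16, which was 0.09 without the array that stood apart. BRD103 and GTE102, bromodomain genes, whose products bind acetylated histones, measured 0.71 and -0.08, and 0.79 and -0.31. SDG118 and SET113, of the SET-domain class found in histone methyltransferases, measured 0.24 and -0.28, and -0.07 and -0.16. CHR111, whose prefix marks chromatin remodelling genes, measured 0.39 and -0.22. SGB101 had the largest named difference of a tested gene, 2.30 in replicate 1, with -0.22 in replicate 2 (1.04 ± 0.57 SE). Its hybrids in replicate 1 measured -0.81 and -1.94 relative to UH301, and 0.53 and 1.32 relative to UH250, whereas in replicate 2 they measured -0.69, 0.25, -0.69 and -0.18. Replicate 1 thus separated the inbreds on all its arrays and replicate 2 did not. Without the array that stood apart the mean was 0.30 ± 0.44. Other tested probes with the SDG, CHR, HAC and SET prefixes were not tied to a gene. Above 0 were 5 of 5 SDG, 3 of 4 CHR, 1 of 3 HAC and 1 of 1 SET probes. Their medians in replicate 1 were 0.47, 0.93, -0.06 and 0.67. In replicate 2 they were -0.27, -0.23, -0.24 and -0.14.

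FIE2, a Polycomb group gene of the ESC class, measured 0.88 in replicate 1 and -0.09 in replicate 2 (0.40 ± 0.53 SE, n = 2), and 0.08 without the array that stood apart. Its hybrids lay below both inbreds in replicate 1, at -0.98 and -1.44 relative to UH301 and -0.55 and -0.09 relative to UH250. A second probe whose ID names FIE2, P_FIE2_, measured 0.66 in replicate 2, opposite in sign to the first, and had no complete loop in replicate 1. FIE1, the imprinted paralogue of FIE2, active from the maternal allele in endosperm, measured -0.38 and 0.02. Cross-hybridisation between these related sequences was not tested. NRP1, another gene with imprinted expression in maize endosperm, measured 0.81 and -0.11, and MEG1, a maternally expressed gene of the basal endosperm, had no complete loop. CENH3, the centromeric histone gene, measured 0.07 and -0.35 (-0.14 ± 0.27 SE). WEE1, a kinase gene of the G2 checkpoint, measured 0.23 and -0.41 (-0.09 ± 0.26 SE).

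GLN4, a cytosolic glutamine synthetase gene, had the lowest mean of the tested named genes. Its inbred difference was 0.19 in replicate 1 and -1.48 in replicate 2 (-0.64 ± 0.44 SE, n = 2, limma adjusted p 0.841). In replicate 2 the hybrids measured 0.25 and 0.54 relative to UH301, and -1.39 and -0.77 relative to UH250, so that both readings placed UH250 above UH301. In replicate 1 the 4 ratios were 0.18, -0.48, 0.00 and 0.09. A second probe whose ID names GLN4, V_gln4_Hinf_I-F, measured -0.32 and -1.12 and was not tested. The mean of the first probe went to -1.05 ± 0.42 without the array that stood apart. HSP101, a heat shock chaperone gene, measured 0.05 and 0.00 (0.02 ± 0.20 SE). GAPDH, a glycolytic gene, measured -0.66 and 0.05, while the elongation factor gene EF1A, which acts in translation, gave -0.03 and 0.30. ES1 measured 2.57 and 0.25, without a test.

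The inbred difference was then compared with that of the endosperm of the same cross, whose RNA came from another tissue. No probe passed the test of the difference between tissues (0 of 1483, 0%), with a lowest limma adjusted p of 0.961, and 51 (3.44%) had an unadjusted p under 0.05. Across probes, replicate 2 of the embryo correlated with the 2 endosperm replicates at r 0.24 and 0.29, and replicate 1 at r 0.12 and -0.06. Of the 12 leading probes on the UH301 side, 8 could be tested in endosperm and 6 had the same sign there. On the UH250 side it was 7 of 12. Over all probes, readings of the embryo through 1 hybrid shared from 43.7% to 60.1% of signs with an endosperm loop. That share was not computed for the fitted means, so the counts are not read as carry-over between tissues. NF10 was alike in both tissues, at 1.20 and 0.77 in embryo and 1.32 and 1.19 in endosperm. S_CC722 was opposite, at 1.01 and 0.56 in embryo against -0.44 and -0.57 in endosperm (difference 1.29 ± 0.29 SE). UF9 measured 1.02 and 0.09 in embryo against -1.09 and -1.66 in endosperm (1.93 ± 0.43 SE), and its embryo value of replicate 1 included -2.06 on the array that stood apart. S_CC437 measured -0.93 and -0.05 against 0.85 and 0.86 (-1.34 ± 0.38 SE). None of these differences passed adjustment.

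The second comparison set this inbred pair beside UH301 and UH005 in embryos. UH301 takes part in both crosses and the labels do not say whether its RNA was shared, so each cross's values are given side by side. No probe passed the test of the difference between crosses (0 of 1314, 0%), and 79 (6.01%) had an unadjusted p under 0.05, with a lowest limma adjusted p of 0.577. HD11 measured 2.00 and 1.65 for UH301 minus UH250, and 0.27, 0.32 and 0.48 for UH301 minus UH005 in the 3 loops with a value (difference 1.46 ± 0.29 SE). CE8 measured 2.58 and 1.89 for the first pair and 1.30, 0.96 and 2.02 for the second. AC8 measured 2.50 and 1.84 beside 1.11 and 1.14. SG4 was above 0 against UH250 (0.80 and 0.94) and below 0 against UH005 (-0.63, -0.26 and -1.04). S_CC402 had the reverse order, at -1.33 and -0.45 beside 0.32, 0.41 and 0.43. KG1 measured -0.58 and -0.20 beside 0.66, 1.31 and 1.52, and LE10 0.01 and 0.22 beside 1.02, 1.69, 0.95 and 1.75. All of these probes but CE8 and AC8 were taken for their low p in this comparison, so the separation of their loops is part of the choice. In CE8 the loops of the 2 crosses overlapped. How many of all 1314 probes had loops that did not overlap was not counted.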

How the data were processed

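The authors' deposited table gives for every array a log ratio for each probe, taken as log2, with gaps. The sources used here state neither the log base and direction nor the background correction and normalization. Direction was taken as channel 1 over channel 2, the order in which the titles name the RNAs. If it were opposite, every sign in the text would flip. Per the labels' protocols, mRNA from oligo-dT beads was copied with template switching, amplified by long-distance PCR for a number of cycles chosen per sample, and labelled with Cy3 or Cy5 from random primers. Amplification can alter ratios.

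Odd replicates, with the inbred in channel 1, were sign-turned to hybrid over inbred. The 4 arrays of a replicate share RNAs, so the loop was the unit. The inbred differences of 12 loops were fitted with limma 3.58.1 (lmFit and eBayes, R 4.3.3), with 1 coefficient per cross and tissue. Tests required a value in both loops and 3 or more residual degrees of freedom. P-values are two-sided, Benjamini-Hochberg adjusted over all tested probes, with a threshold of 0.05. Values written as ± SE come from this fit. The fit was tested on simulated data.

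Named were every probe tied to 1 gene, by family, the 12 probes of lowest p per direction with 1 sign in all 4 readings, and the probes of lowest p in each comparison of tissues and crosses. Gene names come from the probe IDs matched to RefSeq symbols and synonyms. Members and lists were chosen with earlier results of these data known. Probe sequences were not used here. The values of 1 named probe are not reported here.

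Replicate numbers pair the arrays through a shared pollination day, per the labels. Correlations between array kinds in their replicate 1 minus replicate 2 deviations ran from 0.02 to 0.34. The pairing is built into the inbred difference, which is formed within a loop.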

Additional observations from a re-analysis of the deposited data

Results flagged for a closer look

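The array of hybrid 250x301 against UH301 in replicate 1 stood apart from the other 7 embryo arrays of the cross in 2 measures. It had values for 2141 probes, the nearest array having 2801. The standard deviation of its log2 ratios was 1.06, the nearest being 0.760. The gap to the nearest array made up 0.751 of the whole range in the first measure and 0.657 in the second. Both gaps lay above the cut-off for flagging, which about 1 in 20 groups would pass by chance in a single measure. More than 1 measure was searched, and that rate does not allow for it.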

How the results depend on the processing

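The count of probes past the adjusted threshold for the inbred difference, 0 of 1604, stayed 0 after centring, scaling, centring within each form of probe ID, 3 other filters on missing values, a spread from the embryo loops alone, a robust prior, readings through 250x301 alone and leaving out the array that stood apart. The last of these and the centring by ID form were added after the data had been seen. Leaving out that array also lowered the weight of replicate 1. A spread estimated from these 2 loops alone called 3 probes (CE8, HD11 and AC8). Readings through 301x250 alone called 1 (NG3, untested above for want of a value in replicate 1). Leaving out a replicate gave 0 to 3 calls, the 3 being AA3, MD3 and S_CCEC1H8 without replicate 1, where a lone loop was assumed to vary like the other groups. Single arrays with the replicate block called 5 (CE8, HD11, AC8, AA12 and S_CC644), and single arrays with no replicate block called 4 of these. All of these calls were higher in UH301 except S_CCEC1H8, and single-array fits treat arrays that share RNAs as independent. The difference between crosses gave 2 calls with the replicate block (HD11 and KG1) and 0 to 1 without a replicate (MD3 without replicate 1), and the difference between tissues gave 0 throughout. For the named genes 27 of 376 values under these settings changed sign, and 21 of 48 when a replicate was left out. Other filters, other spreads and the single-array fits left the estimates of these genes unchanged, so their values could not change sign. The 27 of 376 is therefore no measure of stability. The leading probes were chosen for 1 sign in all 4 readings, so the sign of their values is no check. Over all 1604 probes, 945 were higher in UH301, against 804 through 301x250 alone and 828 without the array that stood apart. The 2 loops limit the precision.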
